A study of Mus musculus with 6 samples.

Results

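The MYC, MAX and MXD network was followed in Ba/F3, a mouse haematopoietic line that depends on interleukin-3, through 10 genes: Myc, Mycn, Mycl, Max, Mxd1, Mxd3, Mxd4, Mxi1, Mnt and Mlx. They were found in the deposited table by matching its 57010 Ensembl gene IDs to GENCODE M21 symbols, and all 10 were present. Messenger RNA had been measured in 3 libraries of cells with an empty vector (genotype WT in the labels) and 3 libraries of cells with the overexpressed TPR-FGFR1 fusion, which joins a nuclear pore protein to a receptor tyrosine kinase. The fusion was delivered by lentivirus and the fusion cells were selected for 6 days in puromycin at 5 µg/ml, while the labels do not give the selection of the control cells. Neither the promoter of the vector, nor the presence of interleukin-3, nor the number of separate cultures or clones is stated, so p-values measure the spread between libraries, which may be technical. The values are TPM, a measure of abundance per transcript length, and the sequencing depth is unknown.

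MYC proteins are transcription factors of the basic helix-loop-helix leucine zipper class that bind DNA only as dimers with MAX. MAX also pairs with the MXD proteins (MXD1, MXI1, MXD3 and MXD4) and with MNT, which bind the same E-box sites and recruit SIN3 corepressor complexes, so that MYC and these antagonists share both a partner and target sites. MLX is a MAX-like partner that takes up MXD1, MXD4 and MNT but also the nutrient sensors MondoA (gene Mlxip) and ChREBP (gene Mlxipl). In cells of the blood lineages, MYC is known as a driver of growth and ribosome production, and MXD1 and MXD4 as genes of differentiating or resting cells.

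The E-box that these dimers prefer, CACGTG, stands in the promoters of several of the network's own genes. RefSeq promoter windows of GRCm38.p6, from 250 bases before to 50 bases after a transcription start, were found for 9 members, all but Myc. The motif, which reads the same on both strands, was present in the windows of 4 of these 9 genes (44.4%), namely Max, Mlx, Mnt and Mxd4, against 7.15% of all 32851 windows, 8.09% of the 27025 genes that have a window and 11.9% of the 8746 tested genes that have one. The first motif base lay 3 bases before the start in Max, 40 in Mlx, 123 in Mnt and 219 in Mxd4. The sequences are shown to place the binding motif of the network in its own members, 60 bases each, 5′ to 3′ on the strand of the gene and with the motif in capitals. They come from chr12:76962246-76962305 (minus strand) for Max, chr11:101087223-101087282 (plus strand) for Mlx, chr11:74830774-74830833 (plus strand) for Mnt and chr5:34187897-34187956 (minus strand) for Mxd4, all in GRCm38.p6, an earlier build than the GRCm39 of the expression table.
Max: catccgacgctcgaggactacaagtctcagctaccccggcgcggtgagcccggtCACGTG
Mlx: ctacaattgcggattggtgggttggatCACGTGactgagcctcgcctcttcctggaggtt
Mnt: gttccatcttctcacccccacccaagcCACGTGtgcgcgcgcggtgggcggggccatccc
Mxd4: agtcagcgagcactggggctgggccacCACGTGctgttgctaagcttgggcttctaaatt
No CACGTG was found in the windows of Mycn, Mycl, Mxd1 and Mxd3, or in any of the 3 windows of Mxi1, and a match is a description of the letters, not a shown binding site.

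The libraries need a short account before the values. Between 12679 and 12839 genes reached 1 TPM per library, and the 12862 genes averaging 1 TPM or more were tested. Fgfr1, the targeted gene, stood at 0.02, 0.04 and 0.05 TPM with the empty vector and at 0.70, 0.58 and 1.26 TPM with the fusion, without overlap (two-sided exact permutation p = 0.1, which 3 libraries against 3 cannot go below). The species of the fusion insert is not stated in the sources used here, and for an insert of another species this mouse gene would not measure the level of the fusion. The cells are labelled as B lymphocytes, but Rag1 was at 0 in every library and Ebf1, Pax5, Cd79a, Vpreb1 and Igll1 stayed under 1 TPM. Of the 9 genes listed as B-lymphoid markers, not all of them specific to B cells, only Ptprc and Cd79b had a mean above 1 TPM, while all 3 interleukin-3 receptor genes did. TPR-FGFR1 replicate 3 stood apart from the other fusion libraries. Relative to the empty vector mean, the median log2 difference of the 2508 genes richest in GC minus that of the 2509 poorest was −0.69 in TPR-FGFR1 replicate 1, −0.86 in replicate 2 and −0.07 in replicate 3. Member results are therefore also given without that library and as GC-corrected values, from a fit in which each library's smooth trend over GC content and transcript length had been removed. Summed markers of other cell types were 86.5 to 95.1 TPM (empty vector) and 82.2 to 123 TPM (fusion) for 4 erythroid genes and at most 0.17 TPM for 4 T-cell genes, with Cd4 and Cd8a at 0. The 8 myeloid and mast cell markers, nearly all Gata2 and with Kit at 0, summed to 233 to 241 and 135 to 216 TPM, and the 3 interleukin-3 receptor genes to 380 to 412 and 251 to 336 TPM. The part of these differences in the member results was not tested. In bulk RNA, a change in the share of cells that express a gene and a change in its level per cell cannot be told apart.

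Mxi1, an antagonist of MYC, was the member that passed the test, a call lost in 11 of 20 alternative fits. No difference in Myc, Mycn, Max or the other tested members passed it, although in the GC-corrected fit Mycn was called and Mxi1 was not. Of the 9 tested members, 1 rose, 0 fell and 8 did not pass the test (limma, Benjamini-Hochberg adjusted p under 0.05). That is 11.1% of the tested members, against 20.2% of all tested genes, so members were not called more often than the background. At an unadjusted limma p under 0.05, 2 members were higher (Mxi1 and Mxd4) and 1 was lower (Mnt), that is 3 of 9, against 39.1% of all tested genes. The groups did not overlap for 5 of the 9, Mycn, Mxd1, Mxd4 and Mxi1 being higher and Mnt lower with the fusion, against 43.4% of all tested genes. The median log2 fold change was 0.10 over the tested members and 0.02 over all tested genes.

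**Figure D1:**
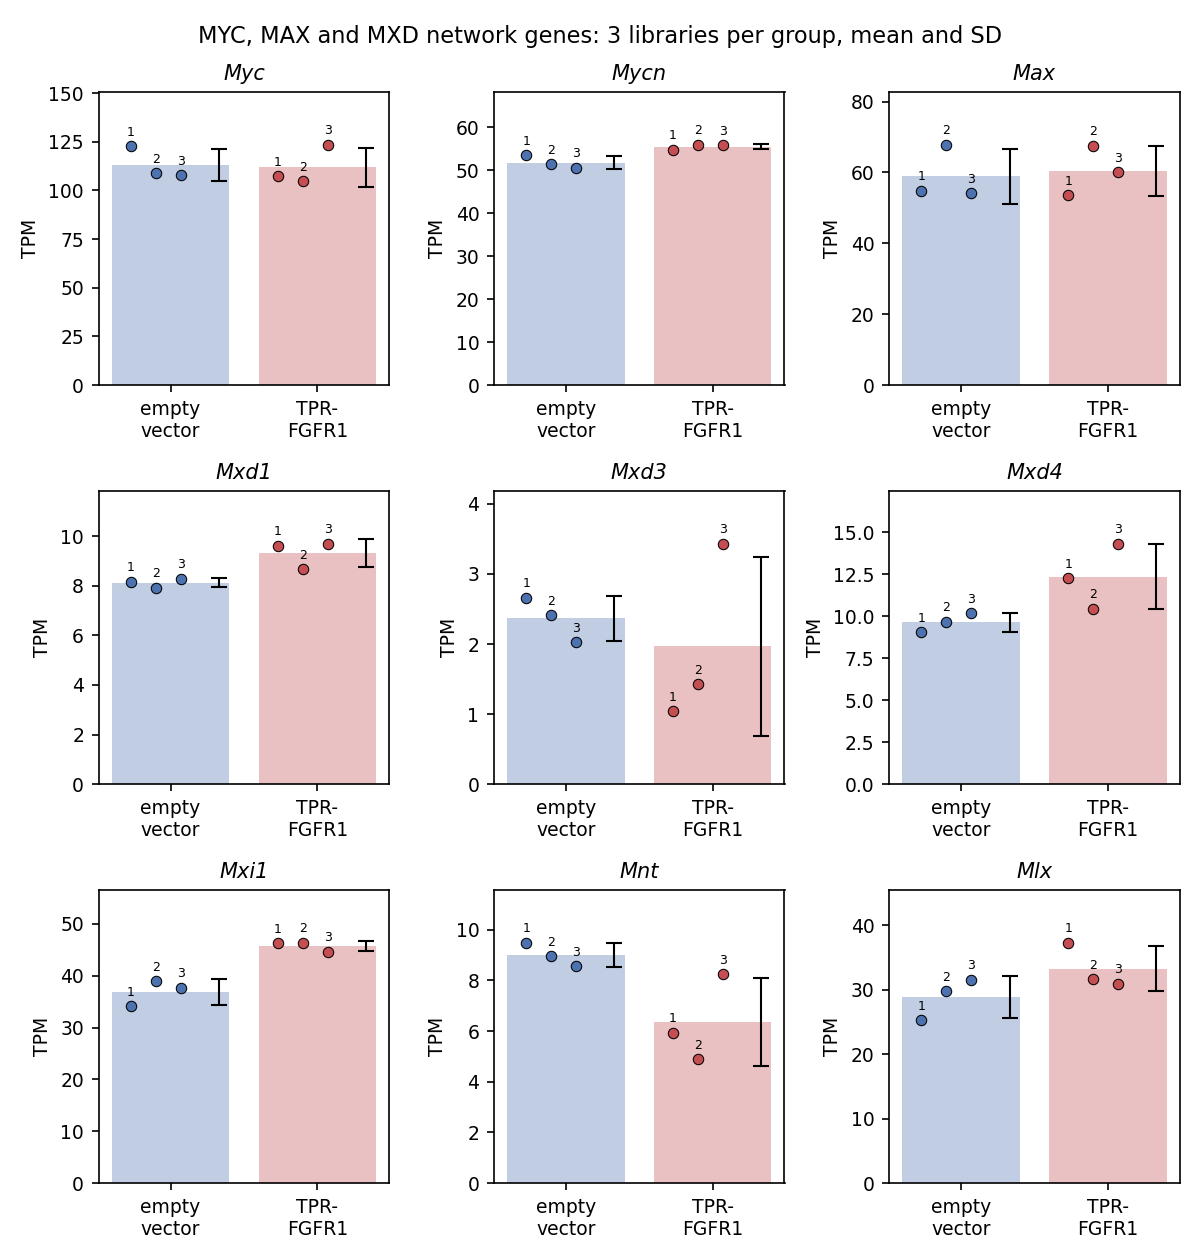
TPM of the 9 tested members in each library, with points numbered by replicate, bars for the mean and error bars for the SD of 3 libraries per group; each axis starts at 0. Myc and Max overlap between groups, Mxi1 lies at 34.1 to 39.0 TPM with the empty vector and 44.7 to 46.3 TPM with the fusion, and Mxd3 spreads from 1.04 to 3.43 TPM within the fusion libraries.

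Among the MYC paralogs, Myc (ENSMUSG00000022346) was the most abundant gene of the network, above 92.7% of all tested genes. It stood at 123, 109 and 108 TPM in the 3 empty vector libraries and at 107, 105 and 123 TPM in the 3 fusion libraries. The groups overlapped fully, each having 1 library near 123 TPM. The Myc log2 fold change was −0.02, with a 95% confidence interval from −0.24 to 0.21 (limma adjusted p = 0.912). Its direction was not fixed: the GC-corrected value was 0.12 (adjusted p = 0.174) and that without TPR-FGFR1 replicate 3 was −0.09 (adjusted p = 0.323).

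Mycn (ENSMUSG00000037169), best known from neural and embryonic tissue and also active in early blood progenitors, was expressed beside Myc. It read 53.4, 51.4 and 50.6 TPM with the empty vector and 54.8, 55.9 and 55.9 TPM with the fusion. Every fusion library was above every empty vector library, by a small margin. The Mycn log2 fold change of 0.10 (SE 0.0665) had a limma adjusted p of 0.304. In the GC-corrected fit Mycn was called higher, at 0.31 (adjusted p = 0.0375), against 29.4% of all genes called in that fit. The Mycn transcript has a GC content of 54.8%, among the 2508 tested genes richest in GC, where the median gene had a log2 fold change of −0.35. Mycl (ENSMUSG00000028654), the remaining paralog, was listed at 0.02 TPM in empty vector replicate 3 and at 0 in the other libraries. It lay under the filter and was not part of the fit (two-sided exact permutation p = 1).

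Summed over the paralogs, MYC transcripts made 165 ± 9.75 TPM with the empty vector and 167 ± 10.4 TPM with the fusion (SD, n = 3 per group). Myc supplied 68.0% to 69.7% of that sum in the empty vector libraries and 65.2% to 68.8% in the fusion libraries, nearly all of the rest being Mycn. These sums and shares are descriptions over members and were not tested.

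Max (ENSMUSG00000059436), the obligate partner, was the second most abundant member. It measured 54.9, 67.8 and 54.1 TPM with the empty vector and 53.6, 67.5 and 60.1 TPM with the fusion. The libraries of both groups covered the same range. The Max log2 fold change was 0.04 (95% confidence interval −0.26 to 0.33, limma adjusted p = 0.845), and it was 0.04 without TPR-FGFR1 replicate 3, while the GC-corrected value was −0.0046 (adjusted p = 0.981). The ratio of summed MYC transcripts to Max was 2.83 ± 0.430 and 2.80 ± 0.362 (SD, n = 3 per group), with overlapping libraries.

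Mxi1 (ENSMUSG00000025025), a MAX-binding antagonist also called MXD2, was the most abundant repressor gene and the member that passed the test. It stood at 34.1, 39.0 and 37.7 TPM in the empty vector libraries. In the fusion libraries it stood at 46.3, 46.3 and 44.7 TPM, all above the highest control. The rise was 1.24-fold, with a log2 fold change of 0.30 (SE 0.0784, limma adjusted p = 0.0384). The call was fragile: it was lost in 11 of 20 alternative fits, with adjusted p-values from 0.00369 to 0.241, although the sign was positive in all 20. Without TPR-FGFR1 replicate 3 the Mxi1 log2 fold change was 0.32 (adjusted p = 0.0126), against 49.7% of all genes called in that fit. Leaving out any 1 of the other 5 libraries gave adjusted p-values of 0.101 to 0.132. GC-corrected it was 0.16 (adjusted p = 0.129), and 0.11 (adjusted p = 0.241) when TPR-FGFR1 replicate 3 was left out of that fit. The Mxi1 transcript has a GC content of 46.3%, and the 2508 genes of similar GC content had a median log2 fold change of 0.14. In replicate 3, where that GC trend was near 0, Mxi1 was 0.27 above the empty vector mean on the log2 scale. That is 1 library, and the part of GC content in the Mxi1 difference was not tested. Mxi1 has 3 promoter windows in RefSeq, and a gene-level TPM does not show which start was used.

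Mxd1 (ENSMUSG00000001156), the founding MXD gene, is induced in several cell types as they leave the cycle. It measured 8.17, 7.92 and 8.28 TPM with the empty vector and 9.61, 8.67 and 9.69 TPM with the fusion. The groups did not overlap, but the Mxd1 log2 fold change of 0.18 (SE 0.0876) did not pass the test (limma adjusted p = 0.176). It was 0.16 when GC-corrected and 0.15 without TPR-FGFR1 replicate 3, with adjusted p-values of 0.111 and 0.152.

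Mxd4 (ENSMUSG00000037235), whose product pairs with MAX or MLX, had a larger difference and a wider spread. It measured 9.05, 9.68 and 10.2 TPM with the empty vector and 12.3, 10.5 and 14.3 TPM with the fusion. The lowest fusion library was just above the highest control. The Mxd4 log2 fold change of 0.32 (SE 0.123) had a limma adjusted p of 0.106. The value was 0.28 in the GC-corrected fit (adjusted p = 0.125) and 0.21 without TPR-FGFR1 replicate 3 (adjusted p = 0.110). The highest Mxd4 value came from that replicate, at 0.53 above the empty vector mean on the log2 scale.

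Mxd3 (ENSMUSG00000021485) differs from its relatives in being known from cycling cells. It was the lowest of the tested members, at 2.66, 2.41 and 2.03 TPM with the empty vector and 1.04, 1.43 and 3.43 TPM with the fusion. Fusion replicates 1 and 2 were below every control and replicate 3 was above every control. The Mxd3 log2 fold change of −0.26 (SE 0.290) had a limma adjusted p of 0.531. Without replicate 3 the value was −0.59 (adjusted p = 0.0278), against 49.7% of all genes called in that fit. The GC-corrected value was 0.01 (adjusted p = 0.966).

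Mnt (ENSMUSG00000000282), a broadly expressed MAX and MLX partner that opposes MYC, had lower values with the fusion, which did not pass the test. It measured 9.48, 8.95 and 8.55 TPM with the empty vector and 5.94, 4.88 and 8.25 TPM with the fusion. All fusion libraries were below the controls, replicate 3 only slightly. The Mnt log2 fold change of −0.47 (SE 0.169) had a limma adjusted p of 0.0906. Leaving out TPR-FGFR1 replicate 3 gave −0.64 (adjusted p = 0.00456), against 49.7% of all genes called in that fit. Mnt has the richest transcript among the members, with a GC content of 59.5%, and its GC-corrected log2 fold change was −0.06 (adjusted p = 0.556).

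**Figure D2:**
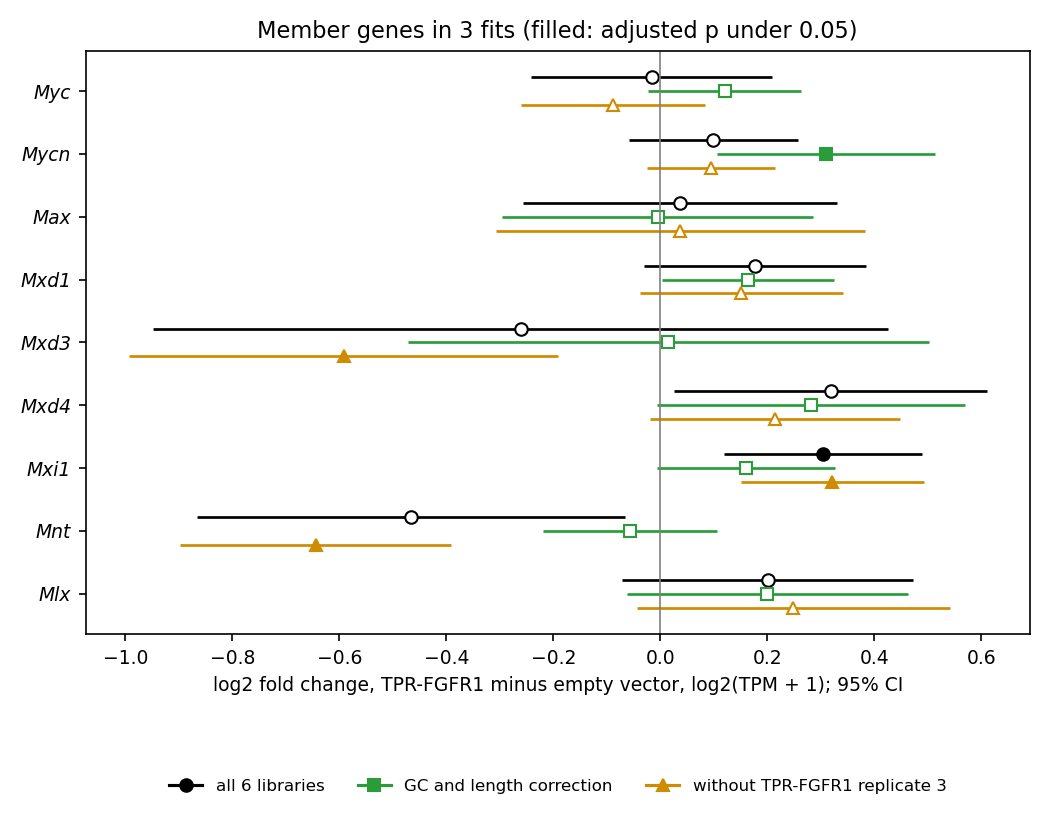
Log2 fold changes on the log2(TPM + 1) scale (x axis) of the 9 tested members (y axis) with 95% confidence intervals from 3 limma fits; filled symbols have an adjusted p under 0.05. Mxi1 is called with all 6 libraries and without TPR-FGFR1 replicate 3 but not in the GC-corrected fit, and Mnt moves from −0.47 to −0.06 there.

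The position of each member against the GC trend was read in single libraries. The 2508 genes richest in GC had a median log2 difference of −0.42 in TPR-FGFR1 replicate 1, where Mnt lay at −0.53, and of −0.56 in replicate 2, where Mnt lay at −0.76. In replicate 3 their median was −0.07 and Mnt lay at −0.11. Mxi1, at 0.32, 0.32 and 0.27 in replicates 1, 2 and 3, and Mxd1, at 0.22, 0.08 and 0.23, were higher in replicate 3 as well. Mycn lay at 0.08, 0.11 and 0.11, above the median of the GC-richest genes in each library. These positions are descriptions, and the part of GC content in any member's difference was not tested.

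**Figure D3:**
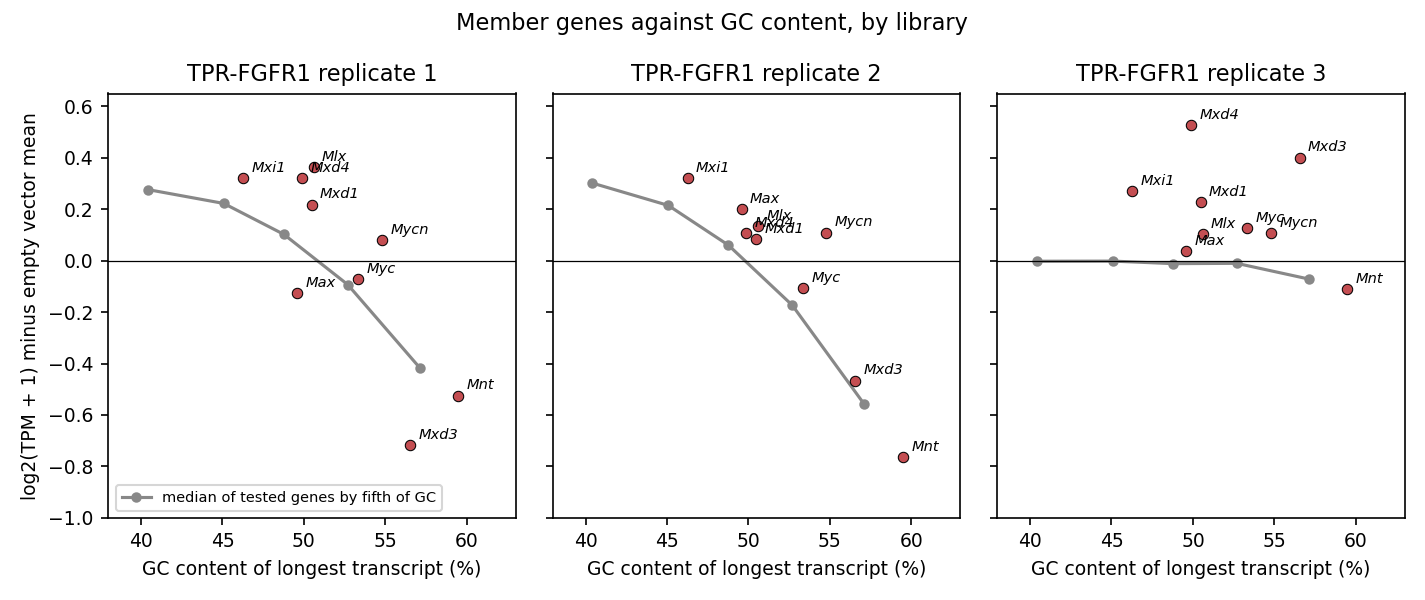
Difference in log2(TPM + 1) from the empty vector mean (y axis) of the 9 tested members in each TPR-FGFR1 library, against the GC content of the longest transcript in percent (x axis); the grey line joins the medians of all tested genes in 5 equal GC groups. The line falls with GC content in replicates 1 and 2, where Mnt reaches −0.53 and −0.76, and is nearly flat in replicate 3.

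The order of levels within the network was nearly the same in both groups. With the empty vector it ran from Myc (113 ± 8.30 TPM) through Max (58.9 ± 7.69), Mycn (51.8 ± 1.48), Mxi1 (36.9 ± 2.51), Mlx (28.9 ± 3.25), Mxd4 (9.64 ± 0.566), Mnt (8.99 ± 0.467) and Mxd1 (8.12 ± 0.185) to Mxd3 (2.37 ± 0.317 TPM; SD, n = 3). Of these neighbours, Mxd4 and Mnt overlapped between libraries. With the fusion the order was Myc (112 ± 10.1 TPM), Max (60.4 ± 6.97), Mycn (55.5 ± 0.638), Mxi1 (45.8 ± 0.967), Mlx (33.3 ± 3.47), Mxd4 (12.3 ± 1.93), Mxd1 (9.32 ± 0.567), Mnt (6.36 ± 1.72) and Mxd3 (1.97 ± 1.28 TPM; SD, n = 3). There Max and Mycn overlapped, and Mnt stood below Mxd1 in place of above it. Summed TPM of the 4 MXD genes was 54.0, 59.0 and 58.2 with the empty vector and 69.2, 66.9 and 72.1 with the fusion, without overlap. Among all tested genes taken singly, 43.4% had groups without overlap. With Mnt added the sums were 66.1 ± 2.30 and 75.8 ± 4.31 TPM, and the ratio of MYC transcripts to all these antagonists was 2.50 ± 0.235 and 2.21 ± 0.0449 (SD, n = 3 per group). These sums and the ratio use TPM without GC correction and were not tested. Mxi1, the largest part of the antagonist sums, was not called in the GC-corrected fit.

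Mlx (ENSMUSG00000017801) opens the parallel arm of the network. It measured 25.3, 29.8 and 31.6 TPM with the empty vector and 37.3, 31.7 and 31.0 TPM with the fusion. The groups overlapped, fusion replicate 3 being below empty vector replicate 3. The Mlx log2 fold change of 0.20 (SE 0.115) had a limma adjusted p of 0.235. The value was 0.20 in the GC-corrected fit and 0.25 without TPR-FGFR1 replicate 3, with adjusted p-values of 0.213 and 0.130.

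Of the remaining network genes, Mlxip, which encodes MondoA, stood at 37.4, 37.6 and 38.5 TPM with the empty vector and at 43.2, 41.6 and 46.0 TPM with the fusion. The groups did not overlap, and the Mlxip log2 fold change of 0.20 did not pass the test (limma adjusted p = 0.0925). Its GC-corrected value was 0.29 (adjusted p = 0.00593), against 29.4% of all genes called in that fit. Mlxipl, which encodes ChREBP, did not exceed 0.07 TPM in any library. Mga, whose product pairs with MAX and also carries a T-box DNA-binding domain, measured 28.2 ± 1.37 and 34.4 ± 4.15 TPM (SD over 3 libraries each, log2 fold change 0.27, limma adjusted p = 0.103). Without TPR-FGFR1 replicate 3 the Mga log2 fold change was 0.37 (adjusted p = 0.00645), against 49.7% of all genes called in that fit. The GC-corrected value of Mga was 0.04.

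Genes that MondoA and MLX are known to activate moved in part. Of 5 listed genes 4 were tested, 2 rose and 0 fell, against 10.2% of tested genes called higher (1291 of 12862 were called lower). Txnip, the thioredoxin-interacting protein that restrains glucose uptake, stood at 135, 147 and 147 TPM with the empty vector and at 200.2, 188 and 202 TPM with the fusion. It rose clear of the controls in every fusion library (log2 fold change 0.46, SE 0.0743, limma adjusted p = 0.0122). The Txnip call held in 15 of 20 alternative fits, including the GC-corrected fit (0.39, adjusted p = 0.00911) and the fit without TPR-FGFR1 replicate 3 (0.44, adjusted p = 0.00283). Pfkfb3, an enzyme that drives glycolysis through fructose 2,6-bisphosphate, stood at 14.9, 16.6 and 18.2 TPM and rose to 27.2, 25.3 and 25.2 TPM. The difference was 0.62 on the log2 scale (SE 0.0944, limma adjusted p = 0.0111), a call that held in 18 of 20 alternative fits. Hk2, a hexokinase gene, measured 52.6 ± 2.16 and 54.3 ± 5.40 TPM (adjusted p = 0.759), and the lactate dehydrogenase gene Ldha 258 ± 13.9 and 205 ± 23.9 TPM (SD, n = 3 per group, adjusted p = 0.0561). Ldha, which also stands in the list of MYC-induced genes, was called lower in the GC-corrected fit (log2 fold change −0.30, limma adjusted p = 0.0313) and without TPR-FGFR1 replicate 3 (−0.43, adjusted p = 0.00261). In both of these fits 2 of the 4 genes rose and 1 fell, against 29.4% and 49.7% of all genes called in them. Leaving out empty vector replicate 2 or TPR-FGFR1 replicate 1 left 0 of the 4 called. Arrdc4, a close relative of Txnip, was listed at 0 in all 6 libraries. CACGTG was found in the promoter windows of Arrdc4, Ldha and Pfkfb3 and not in those of Txnip and Hk2.

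**Figure D4:**
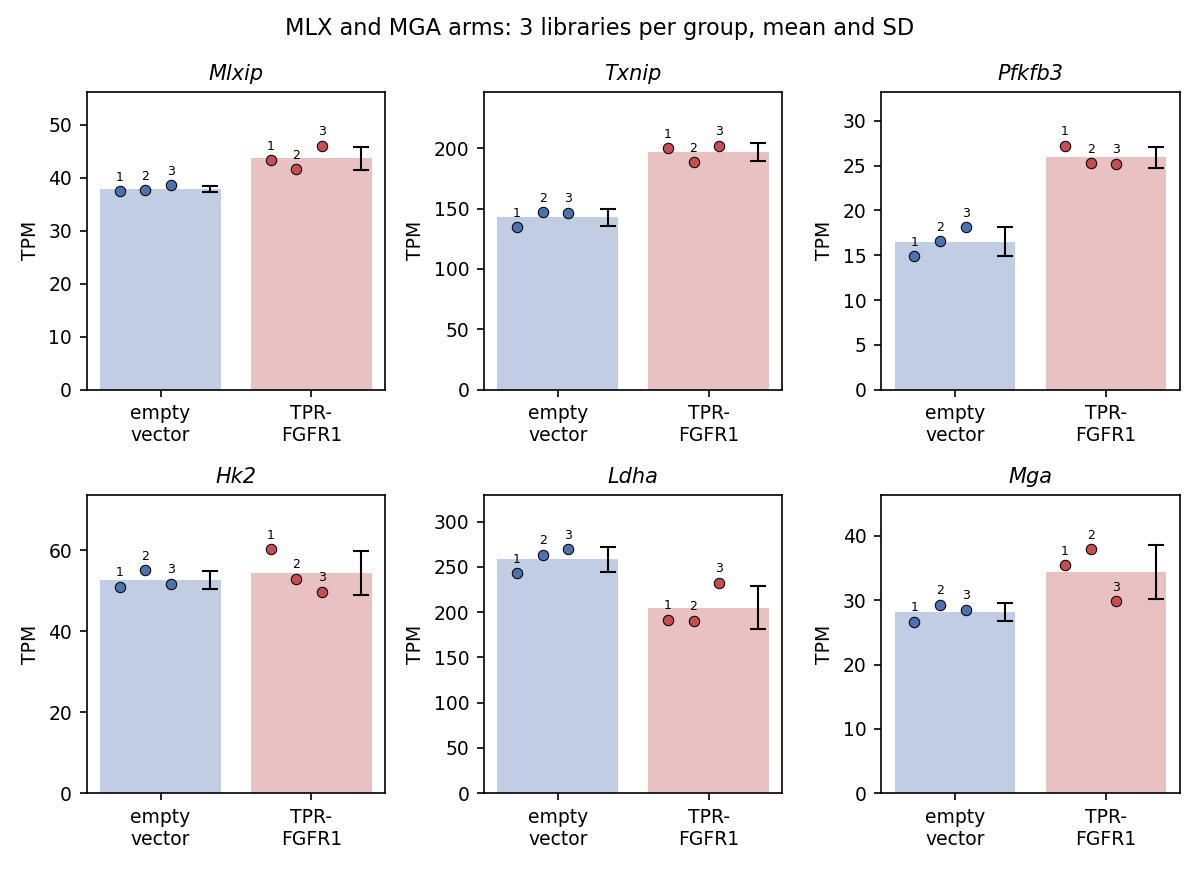
TPM of Mlxip, 4 known MondoA and MLX target genes and Mga in each library, with points numbered by replicate, bars for the mean and error bars for the SD of 3 libraries per group; each axis starts at 0. Txnip and Pfkfb3 are higher in all fusion libraries than in any control, Hk2 overlaps, and Ldha, which did not pass the test, averages 205 against 258 TPM.

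Many genes known to be induced by MYC fell in the fusion cells, while the difference in Myc messenger did not pass the test. Of 40 such genes tested, 16 fell and 0 rose (limma adjusted p under 0.05), against 1291 of all 12862 tested genes called lower and 10.2% called higher. Their median log2 fold change was −0.32, against 0.02 over all tested genes, and by library their median lay at −0.22 in TPR-FGFR1 replicate 1, −0.29 in replicate 2 and −0.30 in replicate 3. In the GC-corrected fit, which called 29.4% of all genes in either direction, 22 fell, 0 rose and the median was −0.31. Without TPR-FGFR1 replicate 3, 24 fell and 2 rose, against 49.7% of all genes called in either direction. When any other library was left out 3 to 8 fell, and 220 to 869 of all genes were called. Many of these genes serve ribosome production and growth and are known targets of other regulators too.

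Apex1, a DNA repair endonuclease gene, gave the smallest p of this list, at 70.7, 72.6 and 77.1 TPM with the empty vector and 42.1, 44.2 and 46.7 TPM with the fusion (log2 fold change −0.72, limma adjusted p = 0.00651). The groups lay far apart and all 3 fusion libraries were alike. Mybbp1a, a nucleolar MYB-binding protein gene, fell by 0.90 on the log2 scale (adjusted p = 0.00665), and Srm, the spermidine synthase gene, fell by 1.03 (adjusted p = 0.00746). The calls of Apex1, Mybbp1a and Srm held in all 20 alternative fits. Shmt2, the mitochondrial serine hydroxymethyltransferase gene, stood at 157, 141 and 137 TPM and fell to 46.8, 41.5 and 82.7 TPM, with replicate 3 the highest of the fusion libraries. Its log2 fold change was −1.40 (adjusted p = 0.0142), and −1.07 in the GC-corrected fit (adjusted p = 0.00343). CACGTG was found in the windows of 12 of the 33 genes of this list that have one (36.4%), against 8.09% of all genes with a window and 11.9% of the 8746 tested genes with a window. These 8746 are only part of the 12862 tested genes. The windows of Apex1 and Mybbp1a hold it, as does that of Ldha, which was not called with all 6 libraries. That of Shmt2 does not, and most genes of this list that were called lower and have a window lack it. Whether the motif goes with the fall was not tested.

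Genes that MYC is known to repress were called in both directions. Of 12 listed genes 9 were tested, with 2 rises, 1 fall and a median log2 fold change of −0.05. The 3 calls are 33.3% of the 9, against 20.2% of all tested genes. Cdkn2c, an inhibitor of the cyclin D kinases, averaged 23.3 ± 1.18 TPM in controls and rose to 36.4 ± 1.49 TPM (SD over 3 libraries each, log2 fold change 0.62, limma adjusted p = 0.00765), a call held in 19 of 20 alternative fits. Ndrg1, a stress and differentiation gene, rose from 9.44 ± 0.459 to 12.1 ± 0.563 TPM (adjusted p = 0.0404), a call held in 12 of 20. Cdkn1b, which encodes the cyclin-dependent kinase inhibitor p27, fell from 46.3 ± 2.30 to 35.4 ± 0.397 TPM (adjusted p = 0.0181), with all fusion libraries close together. The Cdkn1b call held in 14 of 20. Btg2, an antiproliferative gene, stood at 113 ± 5.27 and 95.3 ± 5.58 TPM (adjusted p = 0.0667). In the GC-corrected fit 2 rose and 3 fell, against 29.4% of all genes called in that fit. Without TPR-FGFR1 replicate 3, 2 rose and 4 fell, against 49.7% of all genes called. When any other library was left out 0 to 1 rose and 0 fell.

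Of 16 tested genes for cofactors that MYC uses at chromatin, 6 fell and 0 rose, with a median log2 fold change of −0.24. The calls are 37.5% of the list, against 20.2% of all tested genes. Smarcb1, a core SWI/SNF subunit gene, stood at 32.05, 34.75 and 32.96 TPM with the empty vector and fell to 20.81, 19.50 and 27.35 TPM with the fusion (log2 fold change −0.55, limma adjusted p = 0.0302). All fusion libraries were below the controls, with replicate 3 the highest of them. Ruvbl1 and Ruvbl2, which encode paired ATPases of chromatin remodelling and TIP60 complexes, fell by 0.30 and 0.89 (adjusted p = 0.0373 and 0.0321). GC-corrected, Smarcb1, Ruvbl1 and Ruvbl2 had log2 fold changes of −0.63, −0.22 and −0.53. In that fit 5 of the 16 fell and 1 rose, with a smaller median of −0.14, against 29.4% of all genes called. Without TPR-FGFR1 replicate 3, 9 fell and 2 rose, in a fit that called 49.7% of all genes. None of the 16 was called when any 1 of the other 5 libraries was left out.

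MXD and MNT proteins recruit corepressors, and of 17 genes of the SIN3 and NCOR complexes 5 rose and 1 fell, with a median log2 fold change of 0.22. The calls are 35.3% of the list, against 20.2% of all tested genes. Suds3, a SIN3 subunit gene, stood at 44.2, 43.3 and 42.0 TPM with the empty vector and rose to 66.3, 57.5 and 68.3 TPM with the fusion (log2 fold change 0.55, limma adjusted p = 0.0117). Ncor1, which encodes a nuclear receptor corepressor, averaged 169 ± 11.0 TPM in controls and rose to 242 ± 19.7 TPM (SD over 3 libraries each, adjusted p = 0.0153). Ing1 and Ing2, whose products link SIN3 complexes to methylated histone H3, rose by 0.40 and 0.57 on the log2 scale (adjusted p = 0.0159 and 0.0275). The gene that fell, named after its values were seen, was Brms1, a SIN3 subunit gene (log2 fold change −1.02, adjusted p = 0.0308), and the remaining one that rose was Sin3a (0.29, adjusted p = 0.0497). The Sin3a call was fragile, being lost in 14 of 20 alternative fits, among them the GC-corrected fit (0.19, limma adjusted p = 0.0917). By library the median lay at 0.30 in both TPR-FGFR1 replicates 1 and 2 and at 0.01 in replicate 3. In the GC-corrected fit 5 rose, Sin3a not being among them, and 3 fell, with a median of 0.10, against 29.4% of all genes called in that fit. Without TPR-FGFR1 replicate 3, 9 rose and 2 fell, against 49.7% of all genes called. When any other library was left out 0 to 1 rose.

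Among 16 genes that set the stability of MYC protein, 3 rose and 1 fell, which is 25.0% of the list and near the 20.2% called among all tested genes. Fbxw7, which encodes the ubiquitin ligase receptor that marks phosphorylated MYC for degradation, stood at 21.4, 21.7 and 23.6 TPM with the empty vector and rose to 30.3, 30.4 and 26.1 TPM with the fusion (log2 fold change 0.36, limma adjusted p = 0.0359). Usp28, a deubiquitinase that acts against FBXW7 on MYC, averaged 9.88 ± 1.05 TPM in controls and rose to 15.2 ± 0.200 TPM (SD over 3 libraries each, log2 fold change 0.58, adjusted p = 0.0135). Usp22, a deubiquitinase of the SAGA complex, rose by 0.36 on the log2 scale (adjusted p = 0.0173). The GC-corrected log2 fold changes of Fbxw7, Usp28 and Usp22 were 0.23, 0.45 and 0.36, each with a limma adjusted p under 0.05. Without TPR-FGFR1 replicate 3, 7 rose and 7 fell, in a fit that called 49.7% of all genes. When any other library was left out 0 to 1 rose and 0 fell. Messenger levels do not show MYC protein, which was not measured.

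**Figure D5:**
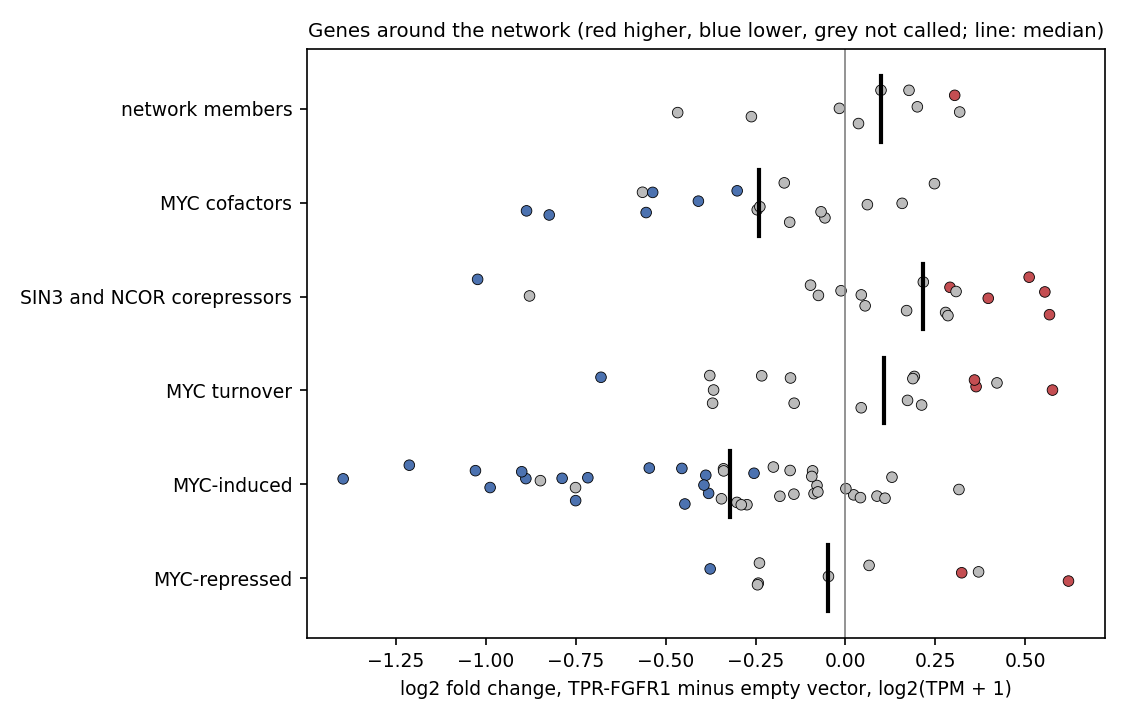
Log2 fold change on the log2(TPM + 1) scale (x axis) of every tested gene in 6 lists (y axis), with the list median as a line; red and blue mark genes called higher and lower with the fusion and grey marks genes not called. The MYC-induced list leans to the left with 16 falls and 0 rises, while the corepressor list leans to the right with 5 rises and 1 fall.

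The genes whose levels ran most like that of Myc over the 6 libraries were sought among 8811 genes averaging 5 TPM or more. They were Rnaseh2c, a subunit of ribonuclease H2 (Pearson's r = 0.987), Ntmt1, a protein N-terminal methyltransferase (0.982), Tmem256 (0.979), Tsga10ip (0.967) and Dhx37, an RNA helicase of ribosome assembly (0.963). All 5 shared with Myc a high value in empty vector replicate 1 and in TPR-FGFR1 replicate 3, as with Rnaseh2c at 10.3 and 12.6 TPM there and 3.47 to 4.77 TPM in the other libraries. Genes most like Mxi1 were Lsm11 (0.997), a component of the histone pre-mRNA processing particle, Sord (0.995), the sorbitol dehydrogenase gene, and Crcp (0.995), a subunit of RNA polymerase III. These are descriptions over 6 libraries in 2 groups, picked as the highest of many, and carry no test.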

How the data were processed

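The authors deposited TPM values for 57010 Ensembl gene IDs in 6 columns, each summing to 1000000 within rounding. The submitters' processing notes name fastp, HISAT2, StringTie and GRCm39, but give no versions here, and no source used states the annotation release or strand setting. Columns were matched to samples by name, with 0 columns of other samples. Symbols (91.3% of IDs), GC content and length of the longest transcript came from GENCODE M21 (GRCm38), matched by ID, and promoter windows from RefSeq (GRCm38.p6).

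The 12862 genes averaging 1 TPM or more entered limma 3.58.1 (R 4.3.3) as log2(TPM + 1), with lmFit and a trended eBayes and group as the only term. This scale understates changes of low genes. Adjustment was by Benjamini-Hochberg over all tested genes, with calls at 0.05. The GC-corrected fit removed from each library a spline trend (4 degrees of freedom each) over GC content and log2 length. TPM keeps no read number, so no counting interval was computed.

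The members, lists and tests were chosen with earlier results of these data known. Genes named from a list are its 4 of smallest p, less a few not reported here, with all further network genes and MondoA targets, and the genes most like Myc (5) and Mxi1 (3). The fit was tested on simulated data with known changes and independent noise. These held no GC trend and no deviating library, so that test does not cover such features. The 20 alternatives varied pseudocount, filter, scaling, eBayes settings, library weights, replicate block and GC correction, and left out each library.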

Additional observations from a re-analysis of the deposited data

How the results depend on the processing

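The 1 member called higher (Mxi1) became 0 without a filter, with eBayes without trend, with the replicate number as a block and with that block plus the GC correction, 2 with quantile normalization, 4 with arrayWeights, and 0 to 1 when single libraries were left out. In the GC-corrected fit the 1 member called was Mycn, not Mxi1. No member was called lower (0 by limma, 1 at an unadjusted p under 0.05), but 2 were with arrayWeights and 0 to 2 when single libraries were left out, the 2 being Mxd3 and Mnt without TPR-FGFR1 replicate 3. Over all genes, 2600 calls became 1146 without a filter, 7602 with arrayWeights (weight 0.124 for TPR-FGFR1 replicate 3), 764 with the replicate block, 4354 with the GC correction without TPR-FGFR1 replicate 3, and 220 to 6396 when single libraries were left out. Same-numbered libraries had correlations of deviations of −0.193, −0.075 and −0.153. These values show no pairing by replicate number, but with 3 libraries per group they cannot exclude it.

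The sign of the log2 fold change varied for 3 members. Myc was 0.0135 without mitochondrially encoded genes, 0.120 GC-corrected, with or without the replicate block, 0.117 GC-corrected without TPR-FGFR1 replicate 3, and −0.0888 to 0.0427 when single libraries were left out. Max was −0.123 with arrayWeights, −0.0046 GC-corrected, with or without the block, −0.0177 GC-corrected without TPR-FGFR1 replicate 3, and −0.0456 to 0.140 when single libraries were left out. Mxd3 was 0.0147 GC-corrected, with or without the block. The cause was not tested. The unknown depth limits what can be said of Mycl and Mlxipl near 0.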
